A study of Homo sapiens with 6 samples.

Results

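The genes described here are 10 genes of necroptosis and of the danger signals that dying cells release: RIPK1, RIPK3 and MLKL, which carry the necroptotic signal, and HMGB1, HMGB2, PARP1, S100A8, S100A9, ANXA1 and CALR. They were taken by symbol from a table of 38637 genes, and all 10 were found. The study asked what pladienolide B, a macrolide that blocks the splicing factor SF3B1, does to ovarian cancer cells. OVCAR8, an established human ovarian cancer cell line of wild type genotype, was exposed to DMSO, the solvent, or to 2 nM pladienolide B (plaB) for 72 h. Poly(A) RNA was sequenced from 3 samples of each group. All 6 samples are of this 1 line.

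Necroptosis is a form of lytic cell death. RIPK1 is engaged downstream of death receptors, and when caspase-8 is inactive it recruits RIPK3 through a shared interaction motif. RIPK3 then phosphorylates MLKL, which oligomerizes and permeabilizes the plasma membrane. Cells that rupture spill danger signals: the chromatin protein HMGB1, which is read by AGER and Toll-like receptors, the calcium-binding pair S100A8 and S100A9, and annexin A1. Calreticulin is an endoplasmic reticulum chaperone that moves to the surface of some dying cells, where it serves phagocytes as an "eat me" signal. PARP1 is a nuclear sensor of DNA breaks whose overactivation drives parthanatos, a further kind of regulated necrosis. These are steps of protein activation and release, which RNA levels do not show.

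The samples held between 22621338 and 26130882 reads on genes. The values are adjusted reads, which the authors had scaled to a common library size. They were compared on the scale log2(value + 1) with limma over the 16178 genes with enough reads, and p-values were adjusted over all of them by the Benjamini-Hochberg method. At an adjusted p below 0.05, 47.6% of these genes were called, with 22.4% higher and 25.2% lower in plaB. DMSO replicate 2 stood apart from its group. Its differences in adjusted reads came to a chi-square per degree of freedom of 7.69 and 7.62 against DMSO replicates 1 and 3. The value was 1.95 between those, and 3.32, 3.37 and 4.94 for the pairs of plaB samples. DMSO replicate 2 was the highest of the DMSO group for 7 of the 7 tested genes described here, and for 41.1% of all genes tested. The labels do not say whether samples of a group were separate cultures, so the p-values may measure technical spread only. Of 12 epithelial and ovarian cancer markers KRT7, KRT8, KRT18, PAX8, MSLN and EPCAM had at least 431 adjusted reads in each sample, while KRT19, CDH1, MUC16, WT1, CLDN3 and CLDN4 had at most 60.3 in any. KRT8, KRT18, CDH1 and CLDN4 rose with plaB, and KRT7 and MSLN fell. Of 12 myeloid markers 10 had too few reads to be tested. The defining marker PTPRC had at most 2 reads in any sample, and S100A12 had 0 reads in each. The summed level of the 12 was 46.2 to 51.5 CPM (reads scaled to the total of the sample) in DMSO and 62.6 to 67.6 in plaB, nearly all of it CD68, which non-immune cells also express. The part of these cells in the results was not tested.

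The levels of the 10 genes ran down in steps, from highly expressed genes to genes with almost no reads. By mean adjusted reads, RIPK1 ranked 3831 and MLKL 11015 among the 16178 tested genes. In CPM per kilobase of the canonical transcript, ANXA1 had the highest level in DMSO, at 619 ± 35.9 (SD, n = 3), followed by CALR at 308 ± 16.5, HMGB2 at 213 ± 5.83, PARP1 at 97.9 ± 1.62 and HMGB1 at 92.6 ± 7.5. PARP1 and HMGB1 are neighbors in this order whose DMSO samples overlapped. The kinase RIPK1 followed at 14.6 ± 0.130 and MLKL at 2.32 ± 0.161 on the same scale. RIPK3, S100A8 and S100A9 lay below 0.2 in every sample, and their order is not resolved. The order of the 7 higher genes was the same in plaB. Transcript lengths are those of the canonical models of GENCODE v44, and which transcripts these cells used was not measured here.

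**Figure D1:**
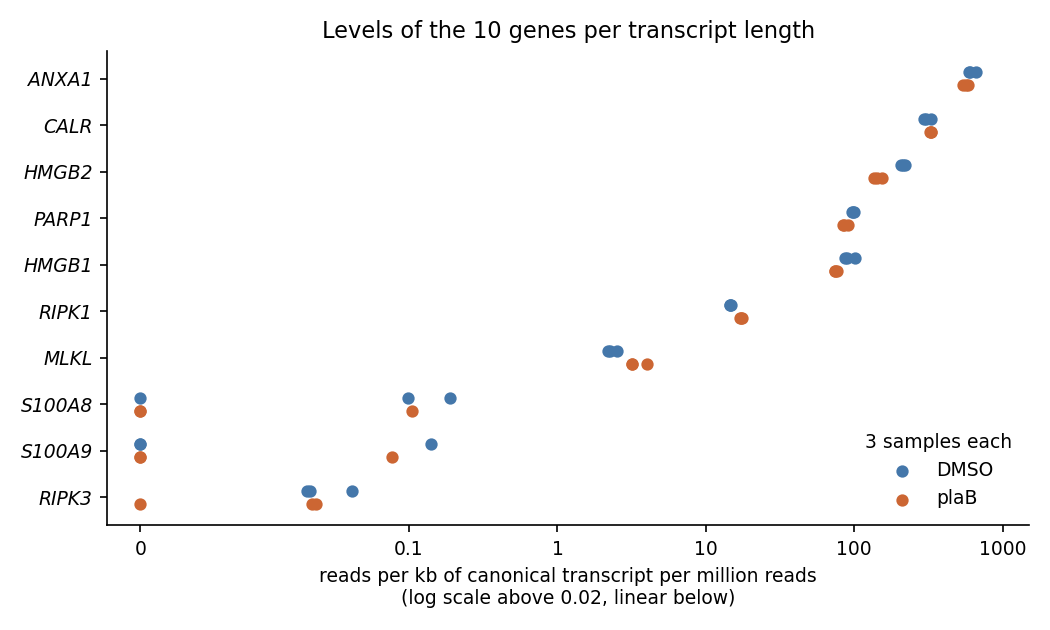
Level of each of the 10 genes in CPM per kilobase of canonical transcript, on an axis that is logarithmic above 0.02 and linear below it, with 1 point for each of the 3 DMSO and 3 plaB samples. ANXA1 lies highest, at a mean of 619 in DMSO, and RIPK3, S100A8 and S100A9 lie at or near 0.

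Of the 10 genes 7 had enough reads to be tested, and 6 of the 7 passed an adjusted p of 0.05, 2 of them higher and 4 lower in plaB. The background is 47.6% of all tested genes, and 62.5% of the 5593 genes with a mean of at least 1000 adjusted reads, a level that 6 of the 7 reach. The groups did not overlap for the same 6 genes, against 55.3% of all tested genes. No change reached 2-fold, while 3.93% of tested genes were called with a change of at least 2-fold. RIPK1 and MLKL rose, the chromatin genes HMGB1, HMGB2 and PARP1 fell, ANXA1 fell less, and CALR was not called. In bulk RNA a lower level can mean less RNA per cell or fewer cells that hold it, which cannot be told apart.

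**Figure D2:**
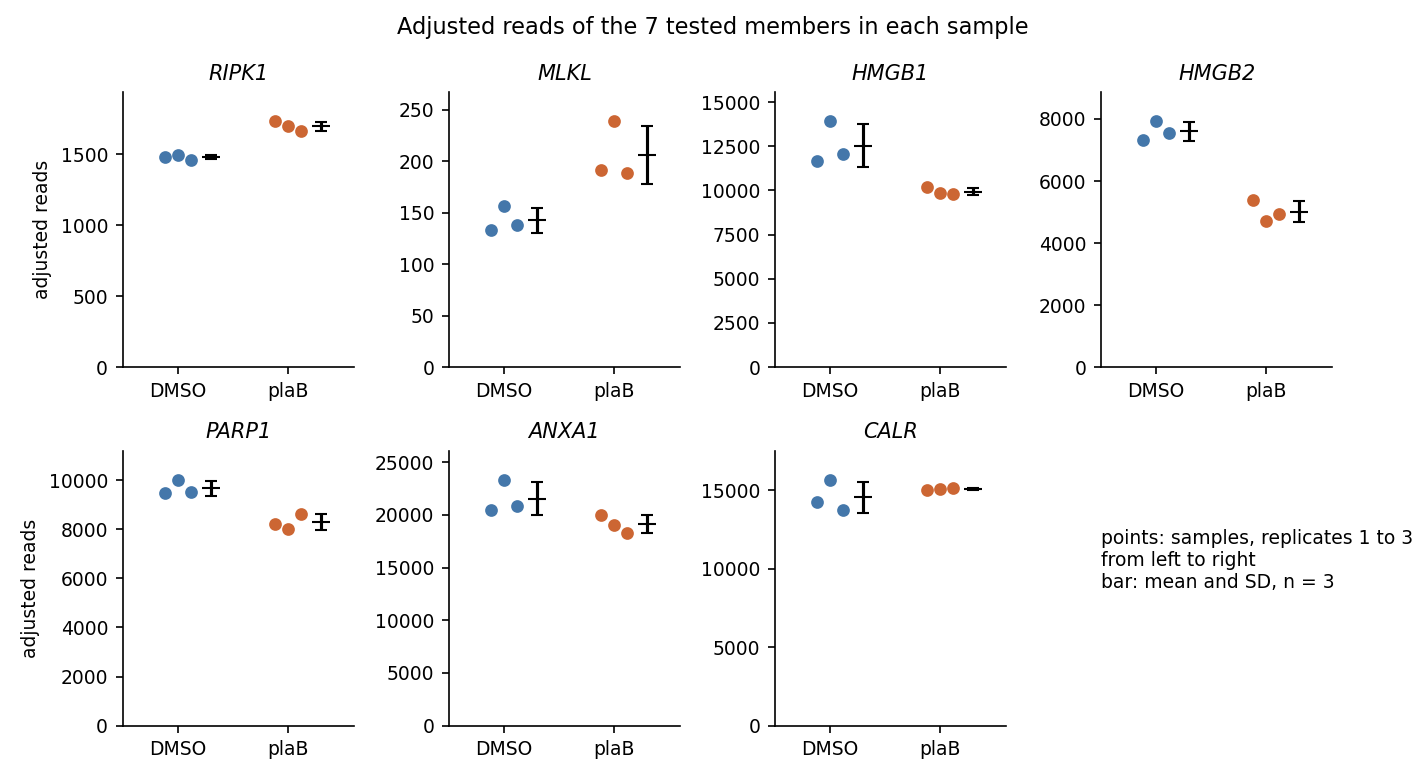
Adjusted reads (vertical axes, from 0) of the 7 tested genes in the 3 DMSO and 3 plaB samples, with the mean and SD of each group. For RIPK1 and MLKL each plaB sample lies above each DMSO sample, for HMGB1, HMGB2, PARP1 and ANXA1 below, and for CALR the plaB samples lie within the DMSO range.

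RIPK3, the kinase that activates MLKL, lies on chromosome 14 of GRCh38 from 24336025 to 24339991, on the - strand. It had 1, 1 and 2 reads in DMSO replicates 1 to 3 and 0, 1 and 1 reads in plaB replicates 1 to 3. Summed over a group this is 4 reads in DMSO, with an exact Poisson interval of 1.09 to 10.2 reads, and 2 reads in plaB, with an interval of 0.242 to 7.22. The upper ends correspond to 0.133 and 0.103 CPM. The ratio of plaB to DMSO, corrected for depth, was 0.551 with a 95% binomial interval of 0.0498 to 3.85. These intervals cover counting error only. A difference was not detectable at this depth. Of the 50-base windows of its canonical transcript 17.0% also occur in 1 other GENCODE gene, and how reads that fit both were counted is not stated.

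MLKL, the pseudokinase that permeabilizes the membrane, lies on chromosome 16 from 74671855 to 74700889, on the - strand, with 11 exons in the canonical transcript. It had 133, 156 and 138 adjusted reads in DMSO replicates 1 to 3. The plaB samples had 191, 238 and 188 in the same order. Each plaB sample was above each DMSO sample, and plaB replicate 2 was the highest. MLKL rose by 0.52 on the log2 scale, with a standard error of 0.13 and a limma adjusted p of 0.00259, which is 44.5% more adjusted reads, and 17.5% of all tested genes changed by more in either direction. The rise was 0.41 without plaB replicate 2, with an adjusted p of 0.0231 by limma. MLKL was the member with the largest rise and the fewest reads among those tested. RefSeq lists 1 promoter window for it on GRCh38.p14, at chr16:74700813-74701112, - strand, from 250 bases before to 50 after the start. It is shown because MLKL had the largest rise, with the core of a cAMP response element (TGACGT on either strand) in capitals, which 7.98% of 35116 promoter windows of this length hold, that of HMGB1 among them. The AP-1 letters TGANTCA and the interferon-response core (TTTC, 2 bases of any kind, TTTC), also searched on both strands, have 0 matches in it.
MLKL: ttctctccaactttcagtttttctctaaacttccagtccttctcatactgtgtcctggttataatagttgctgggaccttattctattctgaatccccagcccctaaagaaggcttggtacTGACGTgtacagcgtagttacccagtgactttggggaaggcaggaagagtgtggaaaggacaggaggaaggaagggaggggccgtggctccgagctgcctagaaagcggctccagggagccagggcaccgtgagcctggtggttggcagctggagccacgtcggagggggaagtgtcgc

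RIPK1, the kinase that scaffolds both survival and death signals at TNF receptor 1, lies on chromosome 6 from 3063967 to 3115187, on the + strand. It had 1484, 1495 and 1463 adjusted reads in DMSO replicates 1 to 3. In plaB replicates 1 to 3 it had 1732, 1697 and 1667. The spread within groups was small, at a coefficient of variation of 1.09% in DMSO and 1.93% in plaB, and the groups were apart. RIPK1 rose by 0.20 on the log2 scale, with a standard error of 0.05 and a limma adjusted p of 0.00253, or by 14.7%, a change that 56.0% of tested genes exceeded in size. Of the 50-base windows of the canonical RIPK1 transcript 2.97% also occur in 1 other GENCODE gene. LOC107986556, which overlaps RIPK1 on the opposite strand, had 2 to 13 reads in a sample. Its part in the result was not tested. The window at the start of the canonical transcript of RIPK1, chr6:3068244-3068543, + strand, is shown because it holds the interferon-response core in capitals, 1 match, which 3.57% of promoter windows hold. It is 1 of 3 windows listed for the gene.
RIPK1: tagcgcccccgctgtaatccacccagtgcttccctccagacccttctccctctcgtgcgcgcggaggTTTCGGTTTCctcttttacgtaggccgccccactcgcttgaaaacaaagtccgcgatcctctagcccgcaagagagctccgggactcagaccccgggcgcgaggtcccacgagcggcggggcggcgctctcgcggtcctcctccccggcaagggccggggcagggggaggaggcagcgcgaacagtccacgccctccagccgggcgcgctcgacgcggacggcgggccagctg
A match is a description of letters and not of binding.

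**Figure D3:**
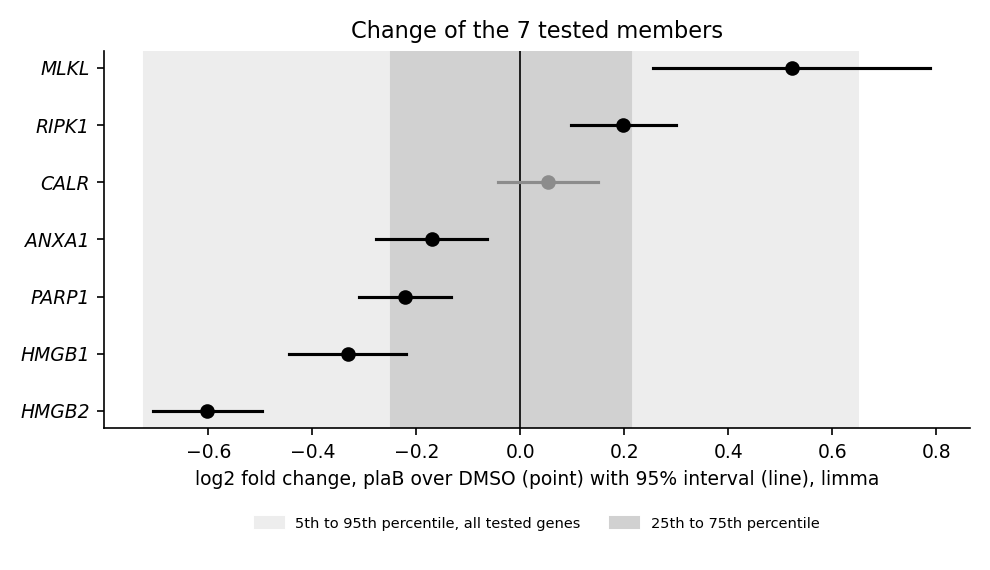
Log2 fold change of plaB over DMSO for the 7 tested genes (points) with the 95% interval from limma (lines), black where the adjusted p was below 0.05, beside the 5th to 95th and 25th to 75th percentiles of all 16178 tested genes (shading). MLKL, at 0.52, and HMGB2, at -0.60, lie farthest from 0, and both are inside the range of -0.72 to 0.65 that holds the middle 90% of genes.

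The genes that feed RIPK1 and RIPK3 were followed through a list of 26, from TNF and the death receptors to the ubiquitin enzymes and caspase-8. Values after ± are the SD of the 3 samples of a group. Of these 26 genes 25 were tested, 11 rose, 7 fell and 7 were not called, so that 72.0% were called. This compares with 47.6% of all tested genes and 62.5% of those with a mean of at least 1000 adjusted reads. The list holds genes on both sides of that level, so neither share is matched to it. The median log2 fold change was 0.09 against -0.0042 for all tested genes. TNF itself had the largest rise, from 342 ± 27.3 to 605 ± 122 mean adjusted reads, or 0.81 on the log2 scale (limma, adjusted p = 1.56e-05). TNFAIP3, the NF-kB-induced editor of RIPK1 ubiquitin, rose by 0.53 on the same scale. CASP8, the protease that cleaves RIPK1 and RIPK3 and so restrains necroptosis, rose from 493 ± 18.4 to 692 ± 16.1, or 0.49 on the log2 scale (limma, adjusted p = 1.46e-05). Its catalytic partner and inhibitor CFLAR went the other way, from 2947 ± 44.3 to 1923 ± 145, or -0.62 on the log2 scale (limma, adjusted p = 7.08e-08). TRADD, the adaptor of TNF receptor 1, fell by 0.55 on the log2 scale, and TLR3, a receptor for double-stranded RNA that can engage RIPK3, fell by 0.74. The call of TLR3 was lost without DMSO replicate 3, with an adjusted p of 0.0516 by limma. Inputs of both kinds, those that promote and those that restrain the pathway, thus rose and fell. ZBP1, a sensor that binds RIPK3 directly, had at most 1 read in a DMSO sample and 0 in plaB, and was not tested.

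**Figure D4:**
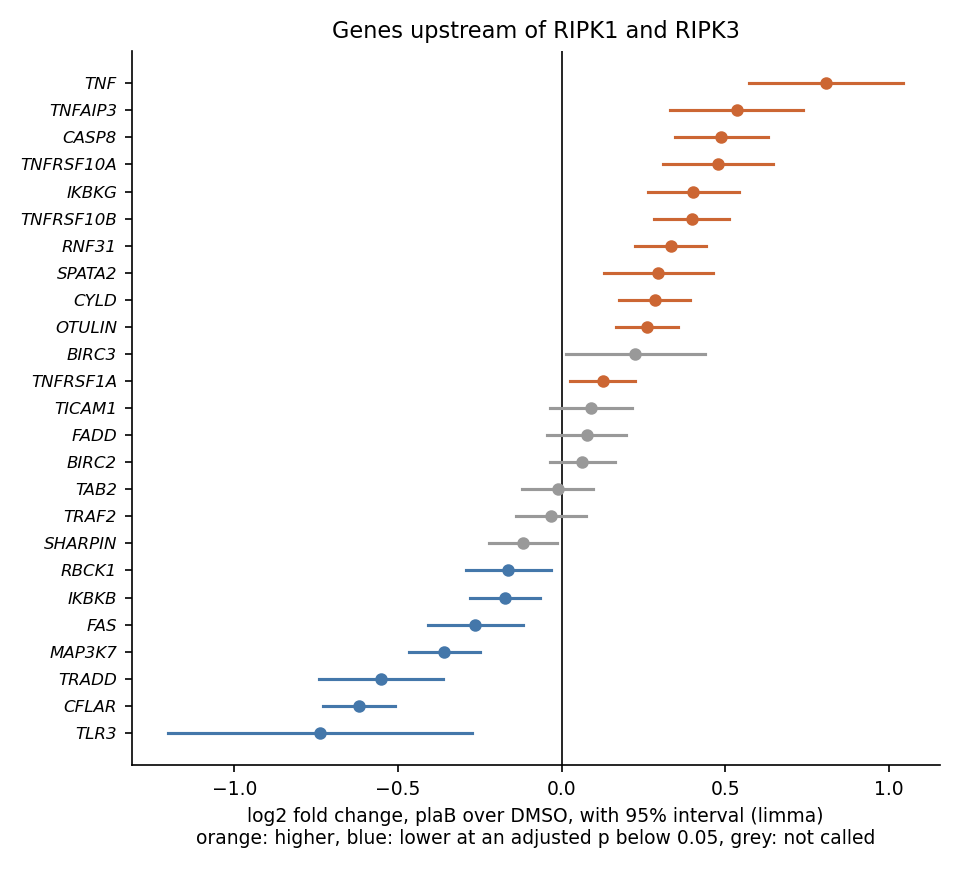
Log2 fold change of plaB over DMSO with its 95% interval from limma for the 25 tested genes of the list upstream of RIPK1 and RIPK3, orange where higher and blue where lower at an adjusted p below 0.05. TNF lies highest at 0.81 and TLR3 lowest at -0.74, and 7 genes in grey were not called.

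Among 21 genes that act on RIPK3 or MLKL or repair the membrane afterwards, 5 rose, 6 fell and 10 were not called. The called share was 52.4% against 47.6% of all tested genes, with a median log2 fold change of -0.0076. Most of these genes have a mean of at least 1000 adjusted reads, and 62.5% of tested genes at that level were called. PGAM5, a mitochondrial phosphatase reported downstream of RIPK3, rose by 0.46, HSP90AA1, the inducible chaperone that stabilizes the kinases, by 0.40, and TSG101 of the ESCRT machinery by 0.35. AURKA, a mitotic kinase, fell by 0.66 on the log2 scale, STUB1, a ubiquitin ligase, by 0.55, and IPMK, a kinase of the inositol phosphates that MLKL binds, by 0.51. This list went both ways in similar numbers.

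HMGB1, a widely studied nuclear danger signal, lies on chromosome 13 from 30456704 to 30617597, on the - strand, with 5 exons in the canonical transcript. It had 11649, 13901 and 12068 adjusted reads in DMSO replicates 1 to 3. The plaB samples had 10167, 9838 and 9794 in the same order. The plaB samples were close together and below each DMSO sample, and DMSO replicate 2 was the highest. HMGB1 fell by 0.33 on the log2 scale, with a standard error of 0.05 and a limma adjusted p of 7.44e-05, so that adjusted reads fell by 20.8%. Without DMSO replicate 2 it fell by 0.26 on the log2 scale, still called at an adjusted p of 1.75e-06 by limma. Of the 5407 windows of 50 bases in its canonical transcript 17.6% also occur in GENCODE transcripts of other genes, 173 in number and led by pseudogenes such as HMGB1P5 and HMGB1P6. How reads that fit several copies were counted is not stated. A search by symbol among the 38637 genes found no pseudogene named after HMGB1, so values of these pseudogenes were not available. The promoter window at the canonical start, chr13:30465887-30466186, - strand, is shown because HMGB1 had the most reads of the nuclear genes that fell. Its 3 CCAAT boxes (CCAAT on either strand) are in capitals, and 3.26% of promoter windows hold at least 3. The window also holds 1 TGACGT core, the letters shown for MLKL, which is left in lower case.
HMGB1: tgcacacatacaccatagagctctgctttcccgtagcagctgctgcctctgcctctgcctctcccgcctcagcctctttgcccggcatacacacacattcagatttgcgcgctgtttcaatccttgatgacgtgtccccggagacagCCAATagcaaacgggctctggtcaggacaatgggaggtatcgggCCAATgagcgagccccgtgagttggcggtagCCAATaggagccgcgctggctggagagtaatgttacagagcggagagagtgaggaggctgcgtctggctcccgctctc

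HMGB2, the paralog of HMGB1 that marks proliferating cells, lies on chromosome 4 from 173331376 to 173334358, on the - strand. It had 7318, 7920 and 7560 adjusted reads in DMSO replicates 1 to 3. In plaB replicates 1 to 3 it had 5389, 4705 and 4943. The gap between the groups was wider than the range of either. HMGB2 fell by 0.60 on the log2 scale, with a standard error of 0.05 and a limma adjusted p of 4.73e-08, so that adjusted reads fell by 34.0%, the largest change among the 7 tested genes in units of its error. Whichever sample was left out, the value stayed between -0.66 and -0.56. The ratio of HMGB2 to HMGB1 within a sample was 0.628, 0.570 and 0.627 in DMSO and 0.530, 0.478 and 0.505 in plaB. Each plaB ratio was below each DMSO ratio, a difference of -0.27 on the log2 scale with a two-sided exact permutation p of 0.1, the smallest that 3 samples against 3 can give. Per kilobase, HMGB2 remained above HMGB1 in both groups, at 144 ± 9.33 against 75.3 ± 1.15 in plaB. In HMGB2 0.718% of 50-base windows occur in another gene.

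Of 12 other genes of proteins with HMG boxes 11 were tested, 3 rose and 4 fell, a called share of 63.6% against 47.6% of all tested genes and 62.5% of those with a mean of at least 1000 adjusted reads, with a median of 0.04. HMGB3, the third family member, fell by 0.22 on the log2 scale, and was not called in a limma fit without the trend of variance with level, at an adjusted p of 0.0638. The falls were led by HMG20B, a subunit of a histone demethylase complex, at -0.81, and by BBX at -0.44. HMGXB3 rose by 0.46. TFAM, which packages mitochondrial DNA, itself a danger signal, rose from 3023 ± 217 to 3845 ± 34.4 mean adjusted reads, or 0.35 on the log2 scale (limma, adjusted p = 2.15e-05).

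Of the 50-base windows of the canonical PARP1 transcript 4.45% also occur in 2 other GENCODE genes. PARP1 lies on chromosome 1 from 226360691 to 226408093, on the - strand, with 23 exons in the canonical transcript, the most of the 10 genes. It had 9464, 10004 and 9521 adjusted reads in DMSO replicates 1 to 3. The corresponding plaB values were 8224, 8008 and 8626. The groups did not overlap, and plaB replicate 3 came closest to DMSO. PARP1 fell by 0.22 on the log2 scale, with a standard error of 0.04 and a limma adjusted p of 0.00033, so that adjusted reads fell by 14.2%, a change that 51.5% of tested genes exceeded in size.

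The list of 14 genes that work with PARP1 or carry parthanatos had 2 rises and 7 falls, with a median of -0.17. The called share was 64.3% against 47.6% of all tested genes. Most genes of this list have a mean below 1000 adjusted reads, so the 62.5% at higher levels is not a matched share. The falls were led by APLF, which binds poly(ADP-ribose) at breaks, at -0.91, by CHD1L, a chromatin remodeler that PARP1 activates, at -0.65, and by PARP3 at -0.51. APLF had 128 ± 12.2 mean adjusted reads in DMSO and 67.7 ± 7.28 in plaB. PARG, the enzyme that degrades poly(ADP-ribose), rose by 0.19, and NAMPT, which acts in the synthesis of the NAD that PARP1 consumes, by 0.20. NAMPT was not called without the variance trend, with a limma adjusted p of 0.0509. AIFM1, the mitochondrial flavoprotein that executes parthanatos, differed by 0.03 on the log2 scale (limma, adjusted p = 0.686) and was not called. The other falls were of PARP2, XRCC1, LIG3 and MIF.

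CALR lies on chromosome 19 from 12938609 to 12944489, on the + strand, with 9 exons in the canonical transcript. Of the 50-base windows of that transcript 9.72% also occur in 1 other GENCODE gene. CALR is described here by its adjusted reads. It had 14249, 15645 and 13747 adjusted reads in DMSO replicates 1 to 3. The corresponding plaB values were 15019, 15047 and 15131. The plaB samples agreed closely, with a coefficient of variation of 0.387%, and lay between the DMSO samples, with DMSO replicate 2 above them and the others below. The difference was 0.05 on the log2 scale, with a standard error of 0.05 and a limma adjusted p of 0.364, and its 95% interval corresponds to a fold of 0.970 to 1.11. Without DMSO replicate 2 the log2 fold change was 0.11, with an adjusted p of 0.00624 by limma, so whether CALR passed depended on that sample. A rise of 2-fold lies outside the interval. The promoter window, chr19:12938359-12938658, + strand, is shown because CALR was the member that was not called while carrying an endoplasmic reticulum stress response element, the letters CCAAT, 9 bases of any kind and CCACG, held by 0.0769% of promoter windows. The first run of capitals is that element, read on the other strand, and it contains the first of 4 CCAAT boxes. The other capitals are the remaining CCAAT boxes.
CALR: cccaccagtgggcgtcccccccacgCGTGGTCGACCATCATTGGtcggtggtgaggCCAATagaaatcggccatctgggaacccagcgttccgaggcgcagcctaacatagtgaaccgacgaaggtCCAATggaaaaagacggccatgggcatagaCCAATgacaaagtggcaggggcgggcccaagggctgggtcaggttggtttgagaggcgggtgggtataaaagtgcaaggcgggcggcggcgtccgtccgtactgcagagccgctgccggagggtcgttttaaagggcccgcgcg

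The partners of calreticulin and other chaperones of the endoplasmic reticulum were followed through a list of 19, of which 18 were tested, 1 rose and 9 fell. The called share was 55.6% against 47.6% of all tested genes, with a median of -0.09. Most genes of the list have a mean of at least 1000 adjusted reads, and 62.5% of tested genes at that level were called. The same element stands in the promoter windows of 4 genes of this list, CANX, HSP90B1, HSPA5 and PDIA6, of the 15 that have a window. Of these, the lectin chaperone CANX differed by 0.00076 on the log2 scale (limma, adjusted p = 0.990) and HSPA5, the stress-induced chaperone BiP, by 0.02 (limma, adjusted p = 0.80), while HSP90B1 fell by 0.26 and PDIA6 by 0.25 on the log2 scale. PDIA3, the oxidoreductase that travels with calreticulin to the cell surface, had 0.01 (limma, adjusted p = 0.838). The falls were led by HYOU1, a chaperone of the HSP110 family, from 2952 ± 181 to 1661 ± 57.2 mean adjusted reads, a log2 fold change of -0.83, by the glucosyltransferase UGGT1 at -0.46 and by the glucosidase subunit GANAB at -0.45. The last pair act in the cycle that loads glycoproteins onto calreticulin. DNAJB11, a cochaperone of BiP, was the gene that rose, by 0.34.

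ANXA1 encodes annexin A1, which binds membranes in the presence of calcium and signals to phagocytes through FPR1 when released. It lies on chromosome 9 from 73151865 to 73170393, on the + strand. It had 20416, 23307 and 20842 adjusted reads in DMSO replicates 1 to 3. In plaB replicates 1 to 3 it had 19993, 19036 and 18275. The groups did not overlap, but plaB replicate 1 and DMSO replicate 1 were close. ANXA1 fell by 0.17 on the log2 scale, with a standard error of 0.05 and a limma adjusted p of 0.0100, and its adjusted reads fell by 11.2%. Without plaB replicate 3 it fell by 0.14 on the log2 scale with an adjusted p of 0.0629 by limma, and without DMSO replicate 2 by 0.11, with an adjusted p of 0.0105. Without the variance trend the limma adjusted p was 0.107. The fall of ANXA1 was the smallest among the 4.

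Of 12 other annexin genes 10 were tested, 5 fell and 5 were not called, with a median of -0.14. The called share was 50%, close to the 47.6% of all tested genes. It lies below the 62.5% of those with a mean of at least 1000 adjusted reads, a level that most of these annexins reach. ANXA8L1 fell by 1.01 on the log2 scale, ANXA8 by 0.91 and ANXA3 by 0.67. ANXA8 and ANXA8L1 are near-identical copies, with 83.2% and 86.8% of their 50-base windows found in another gene, so how reads were divided between them is uncertain. ANXA2, a membrane scaffold and partner of S100A10, differed by 0.01 on the log2 scale (limma, adjusted p = 0.882), and ANXA5, which binds exposed phosphatidylserine, by -0.05 (limma, adjusted p = 0.385).

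S100A8 and S100A9 form calprotectin, a danger signal stored in neutrophils and monocytes. S100A8 lies on chromosome 1 from 153390032 to 153422583, on the - strand, and S100A9 from 153357854 to 153361023, on the + strand. S100A8 had 0, 1 and 2 reads in DMSO replicates 1 to 3 and 1, 0 and 0 in plaB. S100A9 had 0, 2 and 0 reads in DMSO and 0, 1 and 0 in plaB. Neither gene was tested. Over a group S100A8 had 3 reads in DMSO and 1 in plaB, a ratio of plaB to DMSO of 0.367 with a 95% binomial interval of 0.007 to 4.58, and S100A9 had 2 and 1, a ratio of 0.551 with an interval of 0.00934 to 10.6. The upper Poisson limits were at most 0.114 CPM for either gene in either group. No difference was detectable at this depth.

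The other S100 genes behaved as a mixed group, with 10 of 15 tested, 1 higher and 3 lower. The called share was 40.0%, below the 47.6% of all tested genes. Of the 6 not called, S100A1, S100A3, S100A4 and S100A14 had a mean of at most 70.9 adjusted reads in either group. The part of these low levels in the called share was not tested. S100A16 rose from 3100 ± 281 to 4719 ± 102 mean adjusted reads, or 0.61 on the log2 scale (limma, adjusted p = 1.17e-07). S100A6 fell by 0.33 on the log2 scale, S100A10 by 0.18 and S100A13 by 0.18, the last with a call lost when any 1 of 3 samples was left out, DMSO replicate 2, plaB replicate 2 or plaB replicate 3, and also without the variance trend. The median over the tested S100 genes was -0.15. S100A6 and S100A10 had 6863 and 6721 adjusted reads on average in plaB, and the calprotectin pair at most 2 reads in a sample.

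**Figure D5:**
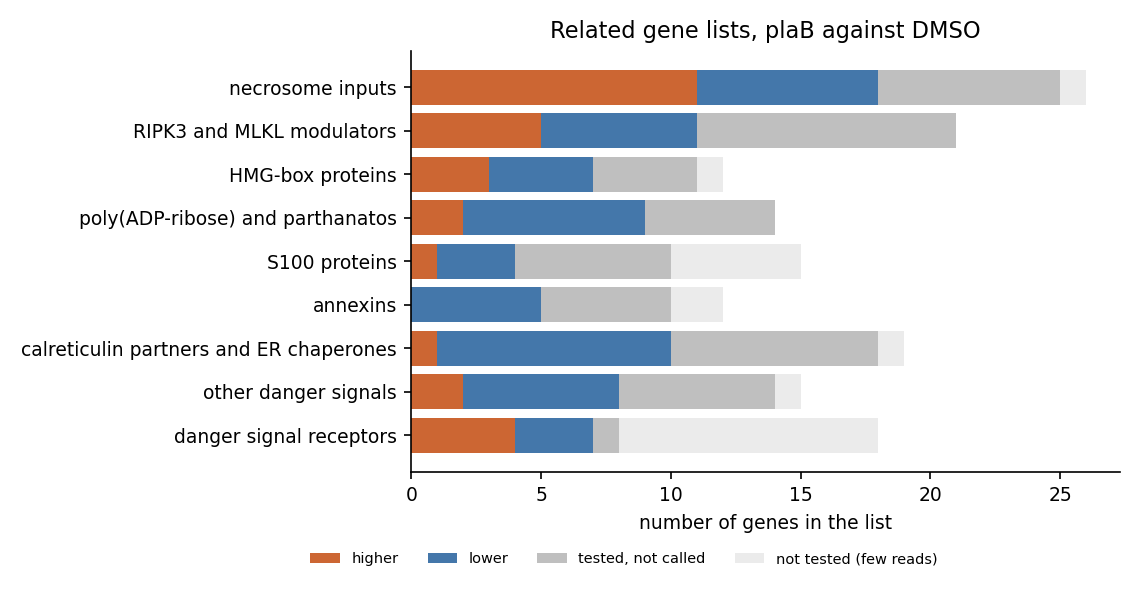
Number of genes (horizontal axis) in each of the 9 lists of related genes that were higher, lower, tested but not called, or not tested for want of reads, in plaB against DMSO. The list upstream of RIPK1 and RIPK3 holds 11 higher and 7 lower genes, and the annexin list 5 lower and 0 higher.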

How the data were processed

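Poly(A) RNA of OVCAR8 cells was sequenced by the authors. By their methods, hisat2 mapped the trimmed reads to hg38, and the submitters' processing notes list HISAT2, HTSeq 0.12.4, DESeq2 and the build hg19. The positions in the table are those of GRCh38: of 26990 symbols shared with GENCODE v44, 99.97% overlap the gene of that name. Gene models and the strand setting of the counting are not given in the sources used here. The deposited values are a signal per gene and sample, reads that the authors adjusted to a common library size. The authors' own log2 fold change, p-value and q-value columns were not used.

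Inverting edgeR's quantile adjustment returned whole reads, within 0.02, for 100% of the 96432 values of at least 10, and adjusting them again gave every deposited value to within 4.9e-05. The main test was limma 3.58.1 with a variance trend on log2(value + 1), two-sided, without the replicate number as a block. The pseudocount of 1 understates changes of genes with few reads. Genes passed edgeR 4.0.16's filter at its defaults, a minimum of 10 in 3 samples and 15 in all. edgeR's quasi-likelihood test with TMM or RLE factors and DESeq2 1.42.0 on recovered reads, no variance trend, no filter, a pseudocount of 0.1, the replicate block and leaving out each sample were alternatives. The fits were tested on simulated data. The 10 genes and the lists were chosen with earlier results of these data known. Named genes are the 10 genes and, in each list, up to 3 rises and 3 falls by size among calls at 0.05 whose 2 groups did not overlap. Of the genes this rule takes, 1 is not reported here. Others named, such as AIFM1, ANXA2, ANXA5, CANX, HSPA5, HSP90B1, PDIA3, PDIA6 and ZBP1, were chosen after their values were seen. Promoter sequences are RefSeq's, on GRCh38.p14, and 8 of the 10 genes have one. Motif letters were searched on both strands. TATA boxes, GC boxes and E2F letters were searched as well, and the motif put in capitals was chosen gene by gene. The share of windows given for a motif does not allow for that choice.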

Additional observations from a re-analysis of the deposited data

How the results depend on the processing

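The alternatives gave 91 values for the 7 tested genes. All 91 had the reported direction, and 88 the reported side of the threshold. ANXA1 was not called by limma without a variance trend, at -0.17 with an adjusted p of 0.107, and with each sample left out in turn its log2 fold change ran from -0.21 to -0.11. CALR ran from 0.013 to 0.11, and was called without DMSO replicate 2. The cause was not tested. The number of the 10 genes called stayed between 5 and 7, against 6. For the 44 list genes that the naming rule takes, 561 of 572 values kept direction and call and 11 lost the call. The list of other danger signals had 4 genes called in place of 8 without the variance trend.

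With the replicate number as a block 7349 genes were called in place of 7695, and 6 of the 10 genes described. The deviations of same-numbered samples correlated at -0.0183, -0.0175 and 0.0026, so the numbers are not taken to pair the samples. Over all alternatives the number of genes called ran from 6381, without the trend, to 7855, without DMSO replicate 2. edgeR called 7738 genes, of which 7616 were shared with limma, and DESeq2 called 6985, of which 6957 were shared. Without a filter RIPK3, S100A8 and S100A9 entered the test and had adjusted p-values of 0.591, 0.576 and 0.841 by limma. Their read numbers set the limit, since 0 to 2 reads per sample resolve no change of ordinary size.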

Other observations

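Of 15 danger signals outside the 10 genes described 14 were tested, 2 rose and 6 fell, a called share of 57.1% against 47.6% of all tested genes and 62.5% of those with a mean of at least 1000 adjusted reads, with a median log2 fold change of -0.06. HMGN1, a nucleosome-binding protein that acts as a danger signal, fell from 6105 ± 482 to 4566 ± 94.0 mean adjusted reads (± SD of 3 samples), a log2 change of -0.42 (limma, adjusted p = 3.55e-06). The redox protein TXN fell by 0.38 on the log2 scale, and PANX1, a channel for release of ATP, by 0.32. HDGF, a nuclear growth factor, rose by 0.16, and was not called without the variance trend, at a limma adjusted p of 0.0571. The other rise was of IL1A, by 0.36 (limma, adjusted p = 0.0299), with groups that overlapped.

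Of 18 receptors of danger signals 8 were tested, 4 rose and 3 fell. The called share was 87.5% of these 8, against 47.6% of all tested genes. Their median log2 fold change was 0.72, against -0.0042 for all tested genes, but the 8 did not move together. The called rises were of 0.91 to 1.15 and the falls of 0.65 to 0.96, and 1 gene was not called. The other 10 had too few reads: TLR4 and FPR1 had at most 1 read in any sample. P2RX7, the receptor of extracellular ATP, rose from 21.5 ± 2.37 to 49 ± 3.67 mean adjusted reads (± SD of 3 samples), a log2 change of 1.15 (limma, adjusted p = 0.00071). IL1R1, the receptor of interleukin-1, rose from 99.2 ± 6.41 to 207 ± 18.1, a log2 change of 1.05 (limma, adjusted p = 3.61e-06), and the scavenger receptor MSR1 by 0.99. CXCR4, a chemokine receptor that HMGB1 engages together with CXCL12, fell by 0.96 on the log2 scale, LRP1, the receptor of calreticulin on phagocytes, by 0.67, and AGER, a receptor of HMGB1 and of S100 proteins, by 0.65.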
